A study of Homo sapiens with 6 samples.

Results

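Tropomyosins are rod-shaped coiled-coil proteins that lie end to end along actin filaments and decide which myosins and other proteins reach the filament. The human genes TPM1, TPM2, TPM3 and TPM4 each give many proteins through a choice of first exon, a choice between copies of an internal exon called 6a and 6b, and a choice of last exon, in which exon 9a marks forms of striated muscle and exon 9d forms of the cytoskeleton. SAM68, encoded by KHDRBS1, is an RNA-binding protein of the STAR family that binds A- and U-rich motifs and acts on the splicing of other pre-mRNAs, and the series asked which splicing events move when it is raised in lung adenocarcinoma (LUAD) cells. The data described here are all listed events of the 4 genes with a mean of at least 10 junction reads over the 6 libraries. These are 44 of 57 listed tropomyosin events and 44 of 66396 such events in the series.

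NCI-H1975, an established human LUAD cell line, received a pcDNA3.1 plasmid that carries SAM68 or the same plasmid without it (2 µg per well, with Lipofectamine 2000), and RNA was taken 48 h later from 3 replicates of each group. Both groups therefore carry the plasmid backbone, and the raised SAM68 comes from transient transfection of 1 cell line. The authors counted paired-end reads that cross exon junctions with rMATS, which lists 2 forms of each event. In KHDRBS1, the targeted gene, junction reads per 1000000 (rpm) were 311, 329 and 316 in control and 1232, 1261 and 1277 in SAM68 libraries (log2 fold change 1.98 ± 0.05 SE, limma adjusted p = 1.15e-21). The libraries held 5444465 to 6331334 reads in the event with the most reads of each gene, and 46905 to 55313 reads over the 44 tropomyosin events, with reads of shared junctions counted more than once. Of 7 epithelial markers the tables list KRT8 and KRT18, which were read in all libraries, with a sum of 729 to 992 rpm in control and 759 to 770 rpm in SAM68 libraries. The highest of these sums came from KRT8 in 1 control library (520 rpm, against 230 to 253 rpm in the other 5). Of 8 muscle markers the tables list only TNNT1, a troponin, at 81.9 to 108 rpm in control and 88.3 to 97.9 rpm in SAM68 libraries. Of 5 fibroblast markers none is listed with a mean of 10 reads, and of 4 leukocyte markers CD68 alone is, at 92.1 to 102 rpm in control and 98.1 to 104 rpm in SAM68 libraries. The tables list genes with a splicing event, so that a missing marker is no sign of a silent gene.

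The exon 6 pair is shown first because it carries the clearest internal choice of the family. The 7 exons are printed 5ʹ to 3ʹ on the strand of the gene (hg38), and capitals in an exon 6b mark the bases that differ from exon 6a of the same gene. All are coding exons of 76 nt, preceded by AG and followed by GT in the genome.
TPM1 exon 6a (chr15:63061198-63061273, plus strand): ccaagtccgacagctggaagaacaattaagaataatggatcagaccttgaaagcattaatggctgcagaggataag
TPM1 exon 6b (chr15:63061713-63061788, plus strand): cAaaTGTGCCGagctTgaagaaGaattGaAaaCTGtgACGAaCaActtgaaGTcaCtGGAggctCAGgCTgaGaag
TPM2 exon 6a (chr9:35685064-35685139, minus strand): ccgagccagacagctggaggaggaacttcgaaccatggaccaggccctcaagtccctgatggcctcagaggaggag
TPM2 exon 6b (chr9:35684732-35684807, minus strand): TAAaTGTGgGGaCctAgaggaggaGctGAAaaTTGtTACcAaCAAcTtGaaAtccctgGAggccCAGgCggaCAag
TPM3 exon 6a (chr1:154172029-154172104, minus strand): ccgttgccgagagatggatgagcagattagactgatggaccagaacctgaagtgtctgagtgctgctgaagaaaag
TPM3 exon 6b (chr1:154171413-154171488, minus strand): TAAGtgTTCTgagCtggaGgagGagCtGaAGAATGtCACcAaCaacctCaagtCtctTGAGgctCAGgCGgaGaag
TPM4 exon 6 (chr19:16089045-16089120, plus strand): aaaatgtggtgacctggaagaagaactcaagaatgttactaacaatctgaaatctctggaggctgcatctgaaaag
Exons 6a and 6b of the same gene were identical at 43 of 76 bases in TPM1 (56.6%) and at 40 of 76 bases in both TPM2 and TPM3 (52.6%). The 3 exons 6b were closer to each other, at 76.3% to 78.9%, and the 3 exons 6a shared 64.5% to 68.4% of their bases. The single exon 6 of TPM4 was identical to the exons 6b at 72.4% to 73.7% of bases and to the exons 6a at 47.4% to 53.9%.

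No tropomyosin event was called. A call needed an adjusted p under 0.05 (quasi-binomial model on the junction counts, Benjamini-Hochberg within the event type) and a difference of at least 10 percentage points in the percent spliced in (PSI), the share of the inclusion form after division by effective lengths. In the series, 17 of 66396 events (0.0256%) were called. The smallest adjusted p of a tropomyosin event was 0.565. An unadjusted p under 0.05 was given by 1 of 44 tropomyosin events (2.27%), against 8.42% of all events. The 3 values of one group lay wholly above or below those of the other in 2 of 44 tropomyosin events (4.55%), 1 in each direction, against 6.12% of all events with a PSI in each library. PSI was higher with SAM68 in 19 events and lower in 25, and the median absolute difference was 0.182 points, against 1.24 points over all events. Several of the 44 events share junction reads, so that these counts are not of independent events. The tropomyosin events and all events were not matched for depth or PSI.

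**Figure D1:**
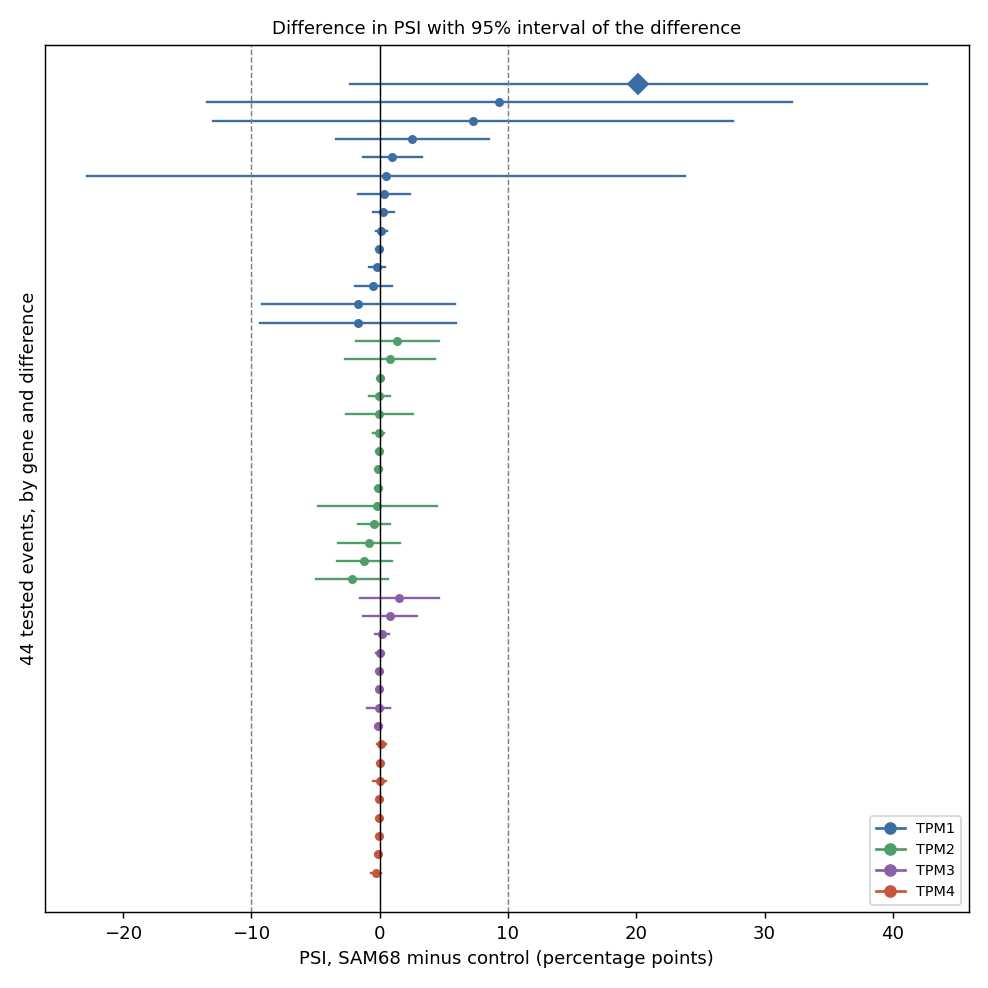
PSI in SAM68 minus control libraries for the 44 tropomyosin events, in percentage points, ordered by gene and difference, with the 95% interval of the difference as a line; dashed lines mark 10 points and the diamond the event with an unadjusted p under 0.05. The events of TPM2, TPM3 and TPM4 lie between -2.15 and 1.55 points, and the wide intervals belong to TPM1.

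Most of these events were close to all or nothing. The mean PSI was at least 95% in 24 events and at most 5% in 11, and 9 events (20.5%) lay between, against 32.3% of all events. TPM2 held 5 of the 9, TPM1 held 3, TPM3 held 1, and TPM4 none. By type, the 44 events were 32 skipped exons (SE), 7 pairs listed as mutually exclusive exons (MXE), 2 alternative 5ʹ splice sites (A5SS), 1 alternative 3ʹ splice site (A3SS) and 2 retained introns (RI). Of the 44 events, 40 had a mean of at least 100 reads, a limit chosen after the values were seen, and in these no difference exceeded 2.56 points and the 95% intervals stayed between -9.34 and 8.56 points. The other 4 events, with means of 10.5 to 65.0 reads, were all in TPM1, and their intervals reached from -22.8 to 42.6 points. The interval of each of these 4 events took in a difference of 10 points. Whether a change of that size could be detected in them was not tested.

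**Figure D2:**
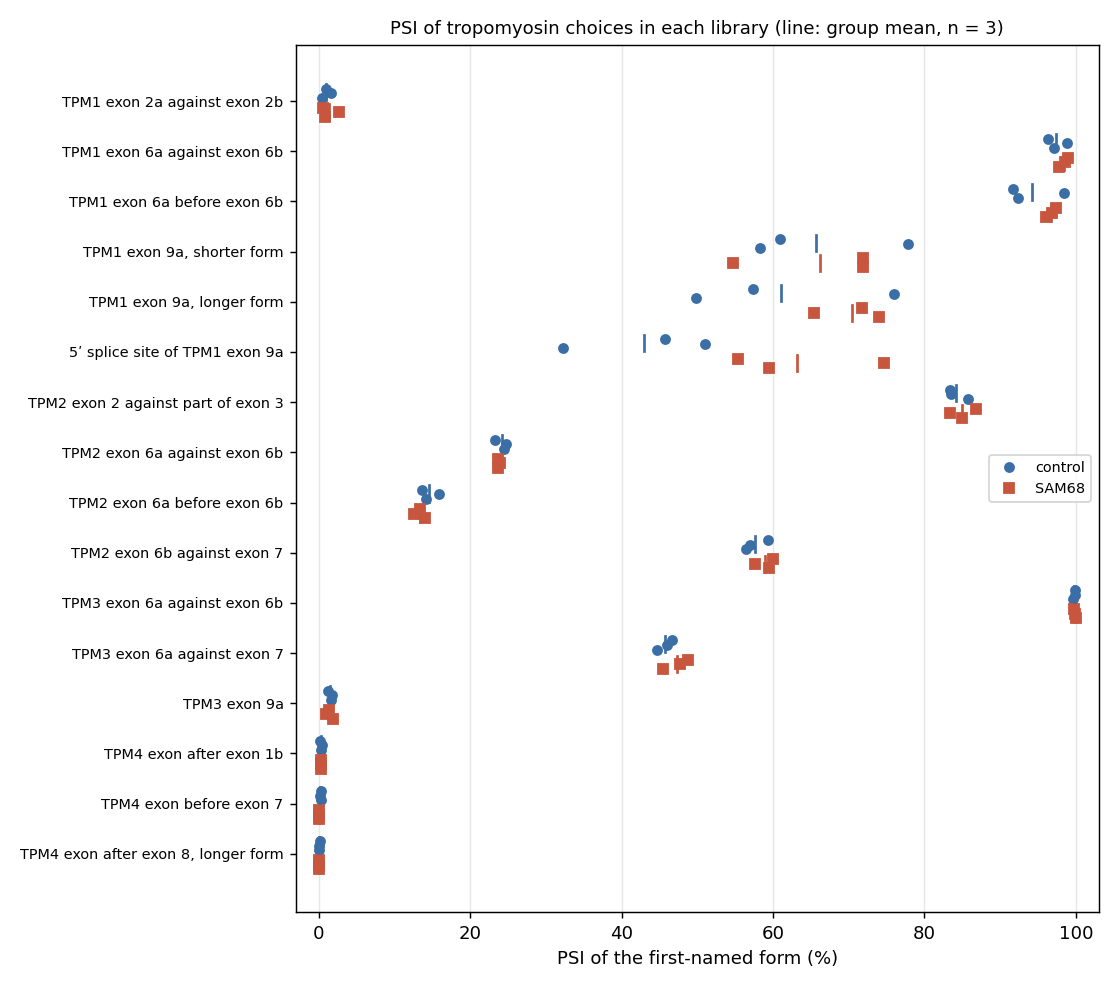
PSI of the first-named form (%) in each library for the 16 tropomyosin choices described by name, circles for the 3 control and squares for the 3 SAM68 libraries, with a line at each group mean. Control and SAM68 points lie over each other in most rows; the 5ʹ splice site of TPM1 exon 9a has mean values of 43.0% and 63.2%.

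The internal exon choice differed between genes and not measurably between groups. In TPM1 (chr15:63042620-63071915, plus strand), PSI of exon 6a against exon 6b was 97.2%, 98.8% and 96.3% in the control and 97.7%, 98.5% and 99.0% in the SAM68 libraries. Exon 6a was thus the major form in every library, and the groups overlapped. The means were 97.4% ± 1.29 and 98.4% ± 0.639 (SD, n = 3 each), and the 95% interval of the difference ran from -1.30 to 3.31 points. The difference of 1.00 points was 1.70 without the second and 0.432 without the third control library. There the quasi-binomial test gave an unadjusted p of 0.0381 and 0.544 (adjusted p = 0.653 and 0.868). In TPM2 (chr9:35681992-35690056, minus strand), PSI of exon 6a was 24.5%, 24.7% and 23.3% in the control and 23.7%, 23.9% and 23.6% in the SAM68 libraries. Here exon 6b was the major form, and the SAM68 values lay inside the control range. The means were 24.2% ± 0.747 and 23.7% ± 0.154 (SD, n = 3 each), with a difference of -0.44 points (interval -1.66 to 0.786, quasi-binomial adjusted p = 0.921). Leaving out the first, the second or the third control library gave -0.281, -0.164 and -0.861 points. In TPM3 (chr1:154155308-154194648, minus strand), PSI of exon 6a was 99.8% ± 0.146 in control and 99.8% ± 0.108 in SAM68 libraries (SD, n = 3 each). Exon 6b of TPM3 was crossed by 14 reads in the 3 control and 11 reads in the 3 SAM68 libraries, against 7900 and 7569 reads of exon 6a. In TPM4 (chr19:16067021-16103002, plus strand), which has no exon 6 pair, no event on exon 6 was listed.

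Single junctions, each entered once in a share, gave the same order. In TPM2, reads that join exon 5 to exon 6b numbered 1116, 1128 and 1113 in the control and 1199, 1088 and 1030 in the SAM68 libraries. Reads that join exon 6a to exon 7 numbered 356, 317 and 293, and 329, 323 and 256. From these 2 junctions the share of exon 6a was 22.3% ± 1.71 in control and 21.4% ± 1.49 in SAM68 libraries, a difference of -0.88 points with an interval of -4.51 to 2.76 points (SD, n = 3 each, exact permutation test, two-sided, p = 0.6). In TPM1, exon 5 joined exon 6b in 21, 4 and 20 control reads and 14, 8 and 8 SAM68 reads, while exon 6a joined exon 7 in 561, 533 and 479 control reads and 514, 474 and 444 SAM68 reads. The share of exon 6b was 2.79% ± 1.78 in control and 2.03% ± 0.544 in SAM68 libraries, a difference of -0.76 points with an interval of -3.74 to 2.22 points (SD, n = 3 each, exact permutation test, two-sided, p = 0.5). Leaving out the first, the second or the third control library gave differences of -0.349, -1.78 and -0.149 points. With 3 libraries a group, the smallest p of this test is 0.1.

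**Figure D3:**
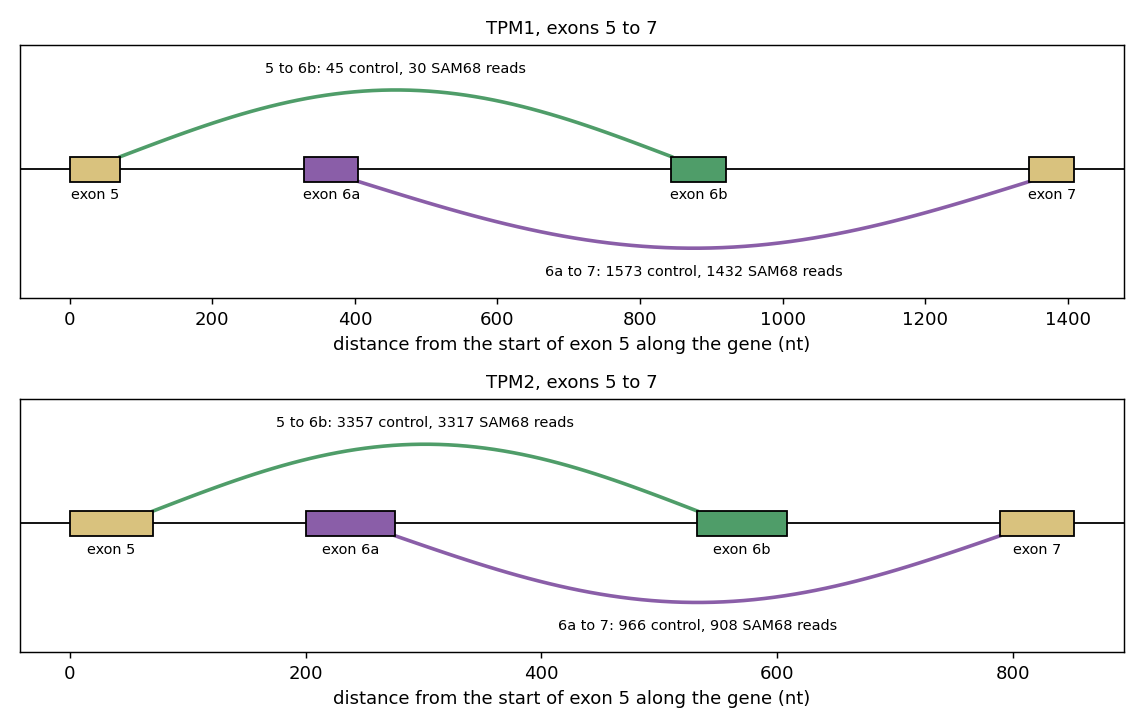
Exons 5 to 7 of TPM1 and TPM2 drawn to scale, with the distance in nt from the start of exon 5 along the gene; arcs are the junctions from exon 5 to exon 6b and from exon 6a to exon 7, each with its reads summed over the 3 libraries of a group. TPM1 reads favour exon 6a (1573 control and 1432 SAM68 reads over the lower arc) and TPM2 reads favour exon 6b (3357 and 3317 reads over the upper arc).

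The same choice also appears as SE events, whose PSI must be read with the exon structure. The listed event of TPM2 exon 6a before exon 6b had a mean PSI of 14.5% ± 1.13 in control and 13.3% ± 0.709 in SAM68 libraries (SD, n = 3 each). Its inclusion form counts the junctions from exon 5 to exon 6a and from exon 6a to exon 6b, and of the 10 annotated TPM2 transcripts none holds both exons, whereas 4 of 39 annotated TPM1 transcripts hold both exons 6a and 6b. In the first control library the event held 289 inclusion reads, while the MXE event held 643 reads over both sides of exon 6a. The SE event thus holds fewer reads of exon 6a than the MXE event, at the same effective length. TPM1 exon 6a before exon 6b, listed the same way, had a PSI of 92.4%, 98.4% and 91.7% in control and 96.0%, 96.9% and 97.4% in SAM68 libraries. The highest of the 6 values is a control library, and the difference of 2.56 points had an interval of -3.44 to 8.56 points (quasi-binomial adjusted p = 0.565). It was 4.68 points without the second and 1.34 points without the third control library (quasi-binomial unadjusted p = 0.0218 and 0.491, adjusted p = 0.653 and 0.725).

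Of the MXE events with a sizeable minor form, 3 pair an exon with all or part of the exon after it in annotated mRNA. Their PSI is therefore no share of 2 isoforms. The event of TPM2 exon 6b against exon 7 had a PSI of 57.6% ± 1.57 in control and 59.0% ± 1.26 in SAM68 libraries (SD, n = 3 each), and 4 of 10 annotated transcripts hold both exons. The event of TPM3 exon 6a against exon 7 had a PSI of 45.7% ± 1.02 and 47.3% ± 1.65 (SD, n = 3 each), and 7 of 27 transcripts hold both. The event of TPM2 exon 2 against the last 38 nt of exon 3 had a PSI of 84.2% ± 1.33 and 85.0% ± 1.73 (SD, n = 3 each), and its shorter exon ends at the same 5ʹ splice site as the full exon 3. In these 3 events the groups overlapped, and the intervals of the difference stayed between -2.70 and 4.65 points.

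Among the upstream choices, TPM1 exon 2 was nearly fixed and TPM3 exon 3 followed either of 2 exons. TPM1 exon 2a, the form of smooth muscle, was in 4, 14 and 9 control and 8, 21 and 5 SAM68 reads, against 941, 887 and 939 and 1003, 790 and 1014 reads of exon 2b. PSI of exon 2a ran from 0.423% to 1.55% in control and from 0.491% to 2.59% in SAM68 libraries. The groups overlapped, and exon 2b was the major form in each library. The tables hold no alternative first exons, but 2 TPM3 events hold exon 3 after exon 1b, which starts the shorter proteins, and after exon 2b of the longer ones. Of the inclusion reads of these events, 70.7%, 71.9% and 71.7% in control and 72.1%, 72.6% and 72.8% in SAM68 libraries belonged to the event with exon 1b. Both events count the junction of exons 3 and 4, which draws this share towards an even split. The groups did not overlap, and the difference was 1.05 points with an interval of -0.17 to 2.27 points (exact permutation test, two-sided, p = 0.1). The difference was 0.666 points without the first control library. In TPM4, an exon of 161 nt after exon 1b (chr19:16080915-16081075) was in 30 control and 21 SAM68 reads, against 4719 and 4234 reads that skip it.

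The 5ʹ splice site of TPM1 exon 9a was the event with the largest difference and the only tropomyosin event with an unadjusted p under 0.05. Exon 9a (chr15:63064064-63064142, 79 nt) joins exon 9b from a nearer 5ʹ splice site or, with 48 nt more, from a farther one. The extension (chr15:63064143-63064190) is annotated in 2 transcripts, both of which have their stop codon in it, so that the rest of the extension is 3ʹ untranslated sequence. The 2 splice sites are shown because the event turns on them, with the last 3 exon bases in lower case and the first 6 intron bases in capitals.
Nearer 5ʹ splice site (chr15:63064140-63064148): catGTAAAC
Farther 5ʹ splice site (chr15:63064188-63064196): aatGTAATA
Reads of the longer form numbered 11, 17 and 23 in control and 30, 36 and 22 in SAM68 libraries, and reads of the shorter form 17, 12 and 20, and 15, 9 and 13. PSI of the longer form was 32.2%, 51.0% and 45.8% in control and 59.5%, 74.6% and 55.4% in SAM68 libraries. All SAM68 values lay above all control values, by 4.42 points at the closest. The means were 43.0% ± 9.69 and 63.2% ± 10.1 (SD, n = 3 each), a difference of 20.2 points with an interval of -2.28 to 42.6 points. The unadjusted p was 0.0362 and the adjusted p 0.644 in the quasi-binomial test, and the exact permutation test gave its smallest value, 0.1. The event had a mean of 37.5 reads a library, and its unadjusted p was above 0.05 when any 1 library but the third SAM68 library was left out (0.0505 to 0.127 in the quasi-binomial test).

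Other readouts of the same exon share reads with this event. The event of exon 9a with the extension is set against exon 8 joined to exon 9b. Its inclusion form also counts the junction of exons 8 and 9a, which the shorter form shares. It held 144 control and 162 SAM68 inclusion reads, against 51 and 88 reads of the longer form alone. Its PSI is thus no measure of the extension alone. This PSI was 49.8%, 76.0% and 57.4% in control and 74.0%, 65.5% and 71.7% in SAM68 libraries. The highest value was a control library, and the means of 61.1% ± 13.5 and 70.4% ± 4.41 (SD, n = 3 each) differed by 9.33 points with an interval of -13.5 to 32.1 points. The difference was 3.69 points without the first and 16.8 points without the second control library. For the event of exon 9a without the extension, which also counts the junction of exons 8 and 9a, the means were 65.7% ± 10.6 and 66.2% ± 9.94 (SD, n = 3 each). Exon 9b was joined from exon 8 in 48.4% ± 7.75 of control and 48.7% ± 12.1 of SAM68 reads, set against the nearer site of exon 9a (SD, n = 3 each, exact permutation test, two-sided, p = 1.0). This share leaves out the longer form of exon 9a, which also joins exon 9b.

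**Figure D4:**
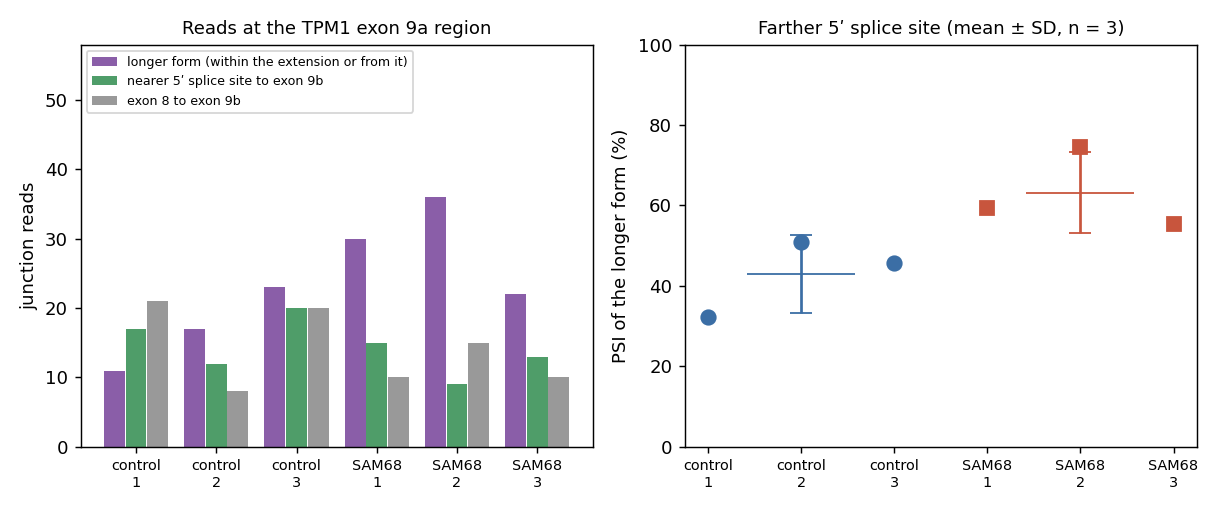
Left, junction reads at TPM1 exon 9a in each library for the longer form, the nearer 5ʹ splice site joined to exon 9b, and exon 8 joined to exon 9b; right, PSI of the longer form (%) with group mean ± SD. The counts run from 8 to 36 reads, and the 3 SAM68 values of PSI (55.4% to 74.6%) lie above the 3 control values (32.2% to 51.0%).

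Junctions into TPM1 exon 9b and into TPM3 exon 9a held few reads. The tested events hold no junction of TPM1 exon 9d and no choice of last exon of TPM2. The use of the cytoskeletal last exon of TPM1 and of either last exon of TPM2 was therefore not measured. For every 100 reads that join TPM1 exons 6a and 7, the junctions from exon 8 and from the nearer site of exon 9a into exon 9b held 6.29 ± 2.34 reads in control and 5.04 ± 0.160 in SAM68 libraries (SD, n = 3 each, exact permutation test, two-sided, p = 0.4). The 3 control values were 6.77, 3.75 and 8.35, so that the SAM68 values of 4.86 to 5.18 lay within their range. This sum leaves out the longer form of exon 9a. With all reads of the longer form added, a sum chosen after the values were seen, the ratio was 9.61 ± 3.20 in control and 11.2 ± 1.32 in SAM68 libraries (SD, n = 3 each, exact permutation test, two-sided, p = 0.5), so that the sign of the difference turned. Exon 9a by both 5ʹ splice sites, without the reads from exon 8, gave 6.47 ± 2.18 in control and 8.71 ± 0.806 in SAM68 libraries (SD, n = 3 each, exact permutation test, two-sided, p = 0.3). In TPM3, exon 9a was skipped in favour of exon 9d by 1786, 1798 and 1716 control and 1956, 1603 and 1630 SAM68 reads. Its PSI was 1.47% ± 0.287 in control and 1.39% ± 0.481 in SAM68 libraries (SD, n = 3 each), with an interval of the difference of -0.98 to 0.816 points. Exons 9a of TPM1 and TPM3 were identical at 68 of 79 bases (86.1%). In TPM4, 1045, 1175 and 1159 control and 1244, 949 and 1005 SAM68 reads joined exon 8 to exon 9d, and an exon of 630 nt between them was in 4 reads of 1 control library and in none of the other 5. A count of 0 allows a PSI of up to 0.120% to 0.158% in those 5 libraries, by 3 reads and for counting error only.

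The other event without overlap between the groups was an exon of 93 nt in TPM4 (chr19:16093040-16093132), between exons 6 and 7. It was in 4, 2 and 4 control and 1, 1 and 0 SAM68 reads, beside 1111, 1246 and 1072 and 1170, 963 and 1012 reads that join exon 6 to exon 7. PSI was 0.174% ± 0.0696 in control and 0.0369% ± 0.0324 in SAM68 libraries (SD, n = 3 each), so that the exon was rare in every library. The count of 0 in the third SAM68 library allows a PSI of up to 0.173%, by 3 reads and for counting error only, which is above the lowest control value of 0.0939%. The difference was -0.137 points with an interval of -0.260 to -0.014 points, on the few reads given above. The quasi-binomial test gave an unadjusted p of 0.0679 and an adjusted p of 0.565. The exact permutation test gave its smallest value, 0.1. The exon was named after its values were seen.

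Motifs beside these exons were counted on the strand of the gene, in the 200 nt before and after each exon. The motifs were TAAA and TTAA, the core of SAM68 binding sites (U in the RNA), and TTCTCT, a motif of PTBP1, a repressor of muscle exons. Matches of TAAA and TTAA can overlap. TAAA stood once before and 3 times after TPM1 exon 9a, and it is part of the nearer 5ʹ splice site printed above, while TTAA stood once on each side of it. Of 38685 distinct exons of tested SE events, 59.7% hold TAAA before and 60.4% after, and the median count is 1. TPM2 exon 6a held TTCTCT once before and 3 times after, and TPM2 exon 6b held it 2 times before. The intron between them is 256 nt, so that these 2 windows share 144 nt and hold 3 distinct matches in all. Of all exons, 17.8% hold it before and 12.9% after. TPM1 exon 6a, the major form of its gene, held no TTCTCT on either side, and exon 6b held 1 before. Both exons of the TPM3 pair held it once before and not after. Neither TPM2 exon held TTAA, which 60.9% of all exons hold before and 59.8% after, but 1 TAAA stood before TPM2 exon 6a. TTAA stood 2 times after TPM1 exon 6a, 2 times on each side of TPM1 exon 6b and 3 times after TPM3 exon 6b. It also stood 1 time after TPM3 exon 6a and 1 time before TPM3 exon 6b. TAAA stood 1 time after TPM1 exon 6a and 1 time on each side of TPM1 exon 6b and of TPM3 exon 6b. These are descriptions of letters in a window and no measure of binding.

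The amount of tropomyosin mRNA, as junction reads, did not pass the test in any of the 4 genes. A gene was called at a limma adjusted p under 0.05 and a log2 fold change of at least 1, which 5 of 10147 genes reached (0.0493%), and 42 genes (0.414%) had an adjusted p under 0.05 at any size. TPM3, which encodes a major cytoskeletal tropomyosin, had 735, 687 and 688 rpm in control and 659, 688 and 663 rpm in SAM68 libraries. The groups overlapped, with a log2 fold change of -0.07 ± 0.05 (SE, limma adjusted p = 0.59). TPM2 had 525, 501 and 509 rpm in control and 533, 541 and 515 rpm in SAM68 libraries, a log2 fold change of 0.05 ± 0.05 (SE, limma adjusted p = 0.741). TPM4 had 432, 408 and 407 rpm in control and 411, 363 and 395 rpm in SAM68 libraries, a log2 fold change of -0.10 ± 0.06 (SE, limma adjusted p = 0.528). TPM1 had 171, 149 and 144 rpm in control and 168, 161 and 168 rpm in SAM68 libraries, a log2 fold change of 0.11 ± 0.07 (SE, limma adjusted p = 0.602). In each gene the ranges of the 2 groups overlapped, and all 4 estimates lay within the 5th and 95th percentile of all genes, -0.50 and 0.32.

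Levels of different genes were compared as density, the rpm of the event with the most reads per 100 nt of effective length. This density was 271 ± 10.9 for TPM3, 197 ± 4.85 for TPM2, 160.0 ± 5.54 for TPM4 and 75.4 ± 7.0 for TPM1 in control libraries (SD, n = 3). In SAM68 libraries it was 258 ± 5.88, 204 ± 5.05, 150 ± 9.26 and 80.9 ± 2.03 (SD, n = 3). The order was the same in all 6 libraries, and no library of one gene reached a library of the next in that order. The groups overlapped in TPM1, TPM2 and TPM4. In TPM3 all 3 control densities lay above the SAM68 densities, by a narrow margin (lowest control 265.04, highest SAM68 264.98). Each density rests on 1 event (exon 3 in TPM2, TPM3 and TPM4, and the exon 6 pair in TPM1), so that mRNAs that lack its junctions are not counted.

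**Figure D5:**
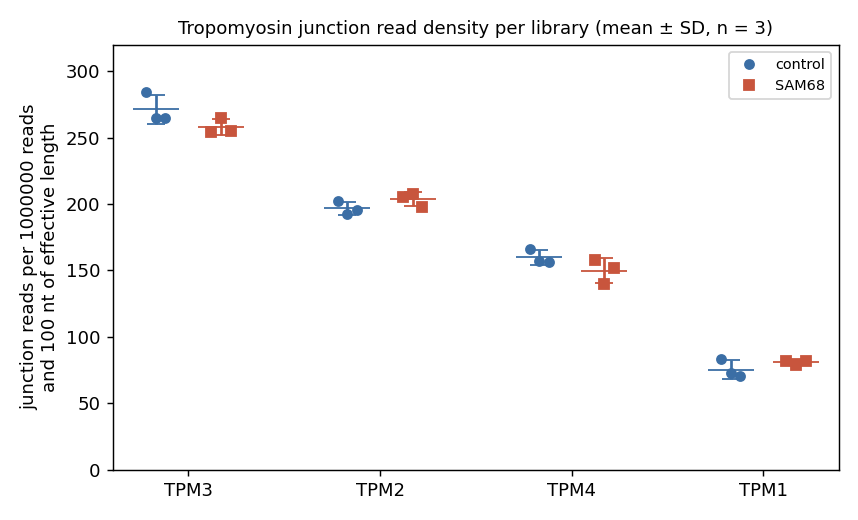
Junction reads per 1000000 reads and 100 nt of effective length for the 4 tropomyosin genes in each library, with mean ± SD (n = 3) of the control (circles) and SAM68 (squares) libraries. TPM3 is highest and TPM1 lowest in all 6 libraries, and control and SAM68 points overlap in TPM1, TPM2 and TPM4, while in TPM3 the lowest control point (265.04) lies just above the highest SAM68 point (264.98).

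Of 33 genes listed as partners of tropomyosin on the actin filament, 24 could be tested and none was called. The cytoplasmic actin gene ACTG1 passed the adjusted p but not the size limit, and no other gene of the list did. It had 1516, 1632 and 1509 rpm in control and 1989, 1870 and 2089 rpm in SAM68 libraries, a log2 fold change of 0.35 ± 0.04 (SE, limma adjusted p = 4.2e-05). Its control and SAM68 values did not overlap. ACTB, the other cytoplasmic actin gene, had 4242 ± 194 rpm in control and 4548 ± 148 rpm in SAM68 libraries, and PFN1, which encodes the actin monomer binder profilin, 3414 ± 39.3 and 3431 ± 49.1 rpm (SD, n = 3 each). ACTB and ACTG1 are near-identical in coding sequence, and the authors' counting may split their reads. The log2 fold changes of the list ran from -0.25 to 0.35 with a median of 0.03, against -0.03 over all genes. An unadjusted p under 0.05 was found for 5 of the 24 genes (20.8%), against 12.1% of all genes. None of its 160 tested events was called, and 20 (12.5%) had an unadjusted p under 0.05, against 8.42% of all events.

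Of 23 splicing factors listed for their action on tropomyosin exons in other cells, 18 could be tested and none was called or had an adjusted p under 0.05. HNRNPA1, an hnRNP that represses exons and has many processed copies in the genome, had 2625 ± 34.9 rpm in control and 2606 ± 149 rpm in SAM68 libraries (SD, n = 3 each). PTBP1 had 456, 461 and 468 rpm in control and 520.0, 476 and 551 rpm in SAM68 libraries, a log2 fold change of 0.16 ± 0.05 (SE, limma adjusted p = 0.212). Its SAM68 values all lay above its control values. HNRNPH1, which binds G-rich motifs, had 402 ± 6.79 and 376 ± 21.2 rpm (SD, n = 3 each). An unadjusted p under 0.05 was found for 4 of the 18 genes (22.2%), against 12.1% of all genes. None of the 188 tested events of this list was called, and 16 (8.51%) had an unadjusted p under 0.05, close to the 8.42% of all events.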

How the data were processed

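RNA of 3 control and 3 SAM68 replicates was sequenced on an Illumina NovaSeq and the authors filtered the reads, checked them with fastp (0.20.0), aligned them with HISAT2 (2.1.0) to GRCh38 and ran rMATS; versions are from the submitters' processing notes, which also name CASAVA (1.4). The deposited tables hold, for each of 5 event types, the authors' raw junction counts of both forms per library as lists of 3 values a group, effective lengths and inclusion levels. Their columns of p-values, FDR and level differences were not used. The list given first was taken as control from a figure of the paper, and lists carry no replicate numbers. Of 78336 events, 275 in the A3SS table had digits regrouped by a spreadsheet. A single division into counts fitted 163 of them, to within 0.00051 of the listed level, and 112 were left out, among them 1 TPM2 event.

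The 66396 events that averaged 10 or more reads a library were fitted by a quasi-binomial model of the group. Pearson dispersions were moderated within each type with limma (3.58.1, in R 4.3.3), kept at 1 or above, and used in an F test. In an MXE event, PSI is that of the upstream exon on the gene's strand. For genes, log2 of rpm plus 0.5 of the event with the most reads was tested with limma (eBayes with trend). Intervals of a difference are at 95%, from the SD pooled over both groups (4 degrees of freedom). They and the exact permutation tests measure the spread between these libraries only. Limits given where no read was found take in counting error alone. Both tests were checked on simulated counts.

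Exon positions are from GENCODE 44. Exons carry the customary tropomyosin names, so that a TPM4 exon has the name of its counterpart in the other genes and not its order in a TPM4 transcript. Of 11653 gene identifiers, 11618 were found in that annotation. Of 38685 distinct exons of tested SE events, 99.9% follow AG and 99.93% precede GT or GC in hg38. The 12 tropomyosin events under 10 reads were not tested. At that limit, a TPM1 SE event with a mean of 10.5 reads (7.30 points) was inside and a TPM4 MXE event with 9.83 reads (-0.05 points) outside. The events named are those called, those with an unadjusted p under 0.05 and, for each alternative exon or splice site, the event with the most reads if its minor form reached 5%. The exon 2a, TPM1 and TPM3 exon 6, TPM3 exon 9a and TPM4 events were added after their values were seen, to cover the same choice in each gene. For the lists, genes called or, if none, the 3 with the most reads are named. The members and lists were chosen with earlier results of these data known.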

Additional observations from a re-analysis of the deposited data

How the results depend on the processing

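No tropomyosin event and no tropomyosin gene was called under any alternative tried: other read minimums, dispersions, tests, adjustments and limits for events, other pseudocounts, scalings and summaries for genes, and each library left out in turn. The smallest adjusted p of an event ranged from 0.519 to 0.876 over 17 alternatives and that of a gene from 0.467 to 0.624 over 11. The difference at the 5ʹ splice site of TPM1 exon 9a kept its direction in all 17, at 14.5 to 24.2 points, with an adjusted p of 0.58 to 0.926. Its unadjusted quasi-binomial p rose above 0.05 with its own dispersion (0.0651), with the added prior (0.0714) and without any 1 library (0.0505 to 0.127) but the third SAM68 library (0.0414), and a separate limma test of logit PSI gave 0.0753. The differences at exon 9a without the extension (-3.22 to 6.55 points), TPM1 exon 2a (-0.34 to 0.715), TPM2 exon 2 (-0.09 to 1.63), TPM3 exon 6a (-0.06 to 0.076) and TPM3 exon 9a (-0.34 to 0.129), and the single-junction shares of TPM2 exon 6a (-1.62 to 0.055) and of exon 8 joined to TPM1 exon 9b (-6.68 to 4.57), changed sign when 1 library was left out. The log2 fold change of TPM2 was -0.03 with all its events summed. With 1 library left out, that of TPM1 ran from 0.058 (without the third control library) to 0.18 (first control), of TPM3 from -0.089 (second SAM68) to -0.037 (first control) and of TPM4 from -0.134 (first SAM68) to -0.045 (second SAM68). An alternative chosen after seeing the data, with the dispersion prior from events with both forms read, called 37 events in the series, against 17, and none of the tropomyosins. Without a read minimum the series had 3 calls, with unmoderated dispersions 2, and 3 when logit PSI was tested by limma. With the larger of own and moderated dispersion it had 6, and without any 1 library 2 to 3. The cause was not tested. No paired analysis was possible because the lists of counts carry no replicate numbers. The tested events with the fewest reads were TPM1 events, at 10.5 a library for exon 2a and 37.5 to 65.0 for exon 9a.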

Other observations

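A TPM2 event on the acceptor after exon 8 was left out because its list of skipping reads had been regrouped and could be divided in more than 1 way. Its inclusion reads were intact, at 0, 0 and 5 in control and 5, 1 and 0 in SAM68 libraries. The 12 tropomyosin events under a mean of 10 reads, which were not tested, were 8 of TPM4, 2 of TPM1 and 2 of TPM3.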
